A study of Caenorhabditis elegans with 2 samples.

Results

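The genes described here build and excite the muscle of Caenorhabditis elegans. They are 53 listed genes of the thick filament and M-line (12 genes), the thin filament (19), the attachment sites that anchor filaments to the membrane (18), and membrane excitation and calcium handling (4). All 53 were found by name among 19973 nuclear protein-coding genes of the annotation. They were chosen by name and function and not by a binding value, but with earlier results of these data known. The data are chromatin immunoprecipitation peak lists for HLH-8 in 1 group of 2 biological replicates. The animals were hermaphrodite late embryos of strain OP63, a transgenic line that makes HLH-8 fused at its C terminus to GFP and FLAG, and they were taken 3.5 hours after synchronization by egg bleaching. The transgene's promoter was not given in the sources used here. An antibody against GFP was used. Candidates in ce11 numbered 24268 for replicate 1, 23945 for replicate 2 and 25904 when both were pooled. The optimal list, made by the authors from peaks reproducible between replicates, was identical to the 1120 strongest pooled peaks. Whole embryos were used, so the lists do not say in which cells a site was occupied, and they hold no expression values against which a tissue could be checked. An untagged strain was not analysed here.

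In striated body wall muscle, myosin thick filaments slide past actin thin filaments when calcium binds troponin C. Thin filaments are anchored at dense bodies and thick filaments at M-lines, and both structures are built on integrin. HLH-8 is the Twist homologue of the worm, a basic helix-loop-helix factor known from the postembryonic mesoblast and from the enteric, vulval and uterine muscles. Such factors bind E-boxes, the motif CANNTG, as dimers. Signals below are column 7 of the deposited lists, in the arbitrary units of the authors' peak caller. The window of a gene reached 2000 bp upstream and 500 bp into the gene, measured from its outermost 5′ end. Replicate signals are those of the nearest replicate summit within 200 bp of the pooled one, and no test was made, because there is 1 group.

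HLH-8 optimal sites were found at a minority of the muscle genes, led by pat-10 (troponin C), lev-11 (tropomyosin) and mlc-3 (a myosin light chain), and mostly at signals not far above the weakest optimal signal of 57.4. An optimal peak lay in the window of 9 of the 53 genes (17.0%, exact 95% binomial interval 8.07 to 29.8, covering counting error over genes only), where 5.42% of all genes had one. With the intronic sites added, 12 of 53 (22.6%) had an optimal site, against 6.32% of all genes. A pooled candidate of any strength lay in the window of 49 members (92.5%), against 50.7% of all genes. Over those 49 the strongest candidate had a median signal of 35.6, against 20.4 over the 10124 genes with one, and 42 members were above that median. Among genes with a candidate, 18.4% of members and 10.7% of genes had an optimal peak. The same comparison among genes at least as long as the median member gave 1 of 27 members against 8.09%. Of the 13 distinct optimal sites, 3 were among the stronger 560 optimal peaks, namely those of pat-10, mlc-3 and lev-11. In the stronger 560, 2 members had a peak in the window (2.90% of all genes).

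The count differed between replicates. The strongest 1120 candidates of replicate 1 alone lay in the windows of 14 members (5.28% of all genes). Those of replicate 2 alone lay in the windows of 6 (5.27% of all genes). Other windows and assignments gave 7 members with 1000 bp upstream (4.13% of all genes), 12 with 5000 bp (8.50%), 12 with each peak given to the nearest 5′ end alone (5.13%) and 11 with any transcript 5′ end (5.75%). Without peaks near small RNA genes it was 9 (4.96%).

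**Figure D1:**
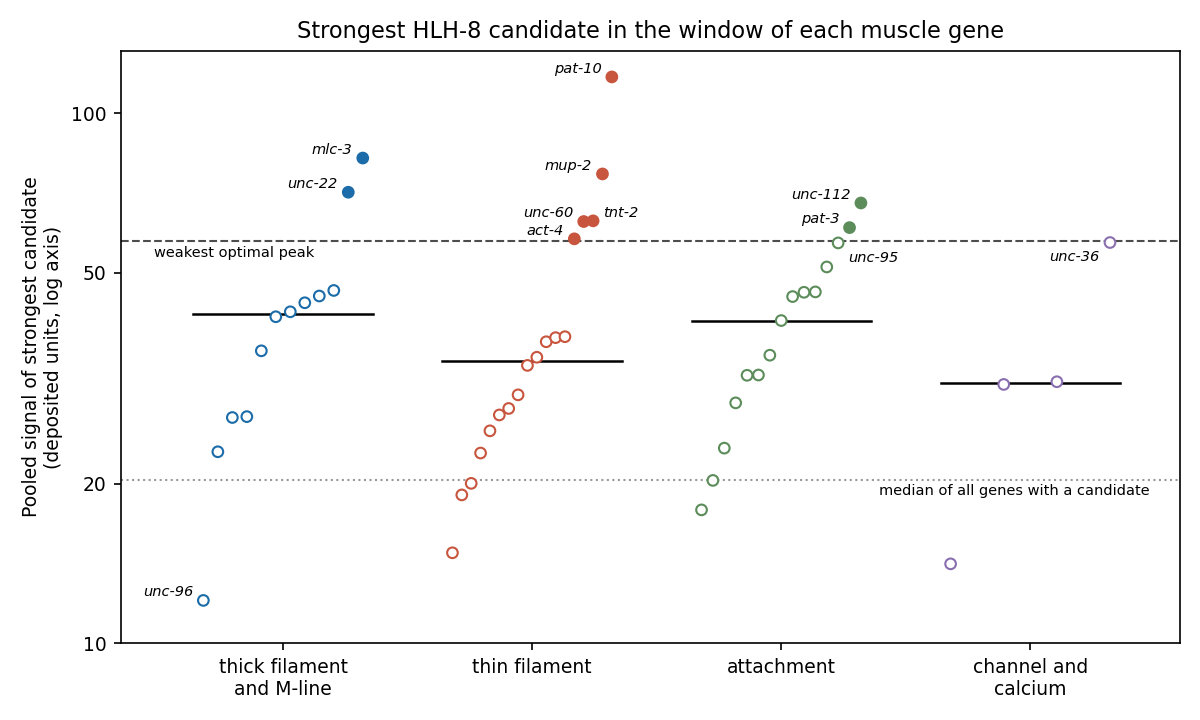
Pooled signal of the strongest candidate in the window of each gene, on a log axis, by class. Filled points are optimal peaks, open points are candidates below the optimal list, bars are class medians, and the lines mark the weakest optimal peak (57.4) and the median of all genes with a candidate (20.4). The thin filament class reaches highest, with pat-10 at 117, and unc-95 and unc-36 sit just under the optimal limit.

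Sequences are shown for the 8 optimal window sites that are not on the chromosome of pat-10, to show the bases under the binding at named genes. Each is the 101 bases centred on the pooled summit, from 50 bp to either side, on the plus strand of ce11, read from the RefSeq copy of the assembly. Capitals mark E-boxes, in any of 10 classes that pool a hexamer with its reverse complement, and the hexamer GAGAGA with its complement TCTCTC. The sites are, in order, chrIV:12010589-12010689, chrIII:3915794-3915894, chrIII:5563872-5563972, chrX:4960474-4960574, chrX:6410400-6410500, chrX:8724045-8724145, chrV:1474700-1474800 and chrV:14697064-14697164. E-boxes were present in the first pair, those of unc-22 and pat-3. None of the other 6 had one. The 8 shown are not typical of all 13 optimal sites in this, since each of the 5 sites not shown held an E-box.
unc-22: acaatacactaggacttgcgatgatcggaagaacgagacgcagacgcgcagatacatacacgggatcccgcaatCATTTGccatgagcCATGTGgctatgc
pat-3: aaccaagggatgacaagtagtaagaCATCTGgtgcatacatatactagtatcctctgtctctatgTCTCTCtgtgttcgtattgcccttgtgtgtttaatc
mlc-3: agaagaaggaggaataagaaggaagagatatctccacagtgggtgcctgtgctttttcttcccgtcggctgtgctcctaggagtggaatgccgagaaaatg
act-4: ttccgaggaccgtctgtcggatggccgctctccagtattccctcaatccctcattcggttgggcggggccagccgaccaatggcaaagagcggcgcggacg
mup-2: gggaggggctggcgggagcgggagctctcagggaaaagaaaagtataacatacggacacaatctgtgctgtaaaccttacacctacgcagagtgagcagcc
tnt-2: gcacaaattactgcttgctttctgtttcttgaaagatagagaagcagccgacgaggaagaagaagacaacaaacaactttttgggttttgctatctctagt
unc-60: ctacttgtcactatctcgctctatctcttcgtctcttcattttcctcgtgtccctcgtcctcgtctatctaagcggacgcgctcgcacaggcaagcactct
unc-112: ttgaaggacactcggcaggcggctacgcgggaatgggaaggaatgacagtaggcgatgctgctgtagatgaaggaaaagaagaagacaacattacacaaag

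Thin filament genes had the highest count of the 4 classes, 5 of 19 (26.3%, exact 95% interval 9.15 to 51.2, beside 5.42% of all genes). They were pat-10, mup-2, tnt-2, unc-60 and act-4, of which pat-10, mup-2 and tnt-2 encode troponin subunits. No test of the differences between classes was made. The count was 2 with the strongest candidates of replicate 2 alone, where mup-2 and pat-10 held a peak, and 6 with those of replicate 1 alone. Thick filament and M-line genes also had 2 with replicate 2 alone, and in the stronger 560 optimal peaks each of these classes had 1. The thin filament class therefore did not have the highest count under every setting.

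The strongest site of any member was at pat-10 (WBGene00003934), which encodes troponin C, the calcium sensor of the thin filament. Its signal was 51.98 in replicate 1 and 64.0 in replicate 2 (58.0 ± 8.53, SD, n = 2). The pooled signal was 117.2, rank 199 of the pooled list. The peak at chrI:5020184-5020333 had its summit in the 5′ UTR, 98 bp downstream of the 5′ end, and also in the window of C46H11.6. Both replicates ranked it among their strongest 1120. The pat-10 signal was at percentile 97.8 of genes with a candidate.

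At mup-2 (WBGene00003495), which encodes troponin T, the replicates gave 38.7 and 38.6 (38.6 ± 0.0406, SD, n = 2) and the pooled signal was 76.9. The peak at chrX:6410228-6410671 was intergenic, 223 bp upstream, and in no other gene's window. It was the closest replicate pair of the 13 sites. At tnt-2 (WBGene00006587), another troponin T gene, the replicates gave 32.7 and 30.02 (31.3 ± 1.88, SD, n = 2) and the pooled signal was 62.7, at chrX:8723873-8724316, 545 bp upstream. Of the remaining troponin T genes, tnt-4 had a candidate of 26.97 in an intron 496 bp downstream of its 5′ end and tnt-3 one of 14.8, neither near the optimal limit.

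The window of unc-60 (WBGene00006794), which encodes the actin depolymerizing factor cofilin, held a peak at chrV:1474528-1474971, 336 bp upstream and also in the window of F53E2.2. Its replicate signals were 39.4 and 25.4 (32.4 ± 9.90, SD, n = 2), with a pooled signal of 62.5. A further optimal peak of signal 63.1 lay outside the window, 2409 bp upstream. At act-4 (WBGene00000066), an actin gene, the replicates gave 31.4 and 23.0 (27.2 ± 5.92, SD, n = 2) for a peak 97 bp upstream at chrX:4960302-4960745. Its pooled signal of 58.0 ranked 1093, just inside the optimal list, and its 101 bases were the richest in GC of the 13 sites, at 64.4%.

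The other actins had candidates only. act-1 had 37.1 (replicates 9.75 and 25.6), act-2 29.4 and act-3 27.7, all upstream of their 5′ ends. The act-2 candidate also lay in the window of act-1, whose 5′ end was nearer (1214 against 1684 bp). An optimal peak of 76.9 lay 4561 bp upstream of act-2. The nearest 5′ end was that of act-1, at 1663 bp, and the summit lay past the 3′ end of act-1. Actin coding sequences are nearly identical, so reads within them could be split among the copies, and the authors' handling of such reads was not given in the sources used here.

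Troponin I genes had no optimal peak. The strongest candidate of unc-27, a body wall troponin I gene, had a pooled signal of 37.7 (replicates 18.8 and 20.2) and lay 274 bp upstream. It had CAATTG and CAGATG within 50 bp of the summit. The candidates of tni-3 and tni-4 had pooled signals of 34.7 and 20.03. For tni-1 no pooled candidate lay in the window or an intron, and the nearest one upstream, at 2014 bp with a signal of 41.4, lay just past the window border. There replicate 1 had 37.2 and replicate 2 had 8.56.

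Among the regulators of actin, cpn-3, a calponin-related gene, had the strongest candidate of a thin filament gene with no optimal site, at 37.9 (replicates 17.3 and 21.7). The calponin-like gene unc-87 had 33.4 and unc-78, which encodes the cofilin partner AIP1, had 25.2. The windows of lev-11 (tropomyosin) and unc-94 (tropomodulin) held weak candidates of 19.05 and 22.9, while both genes had an optimal site in an intron.

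**Figure D2:**
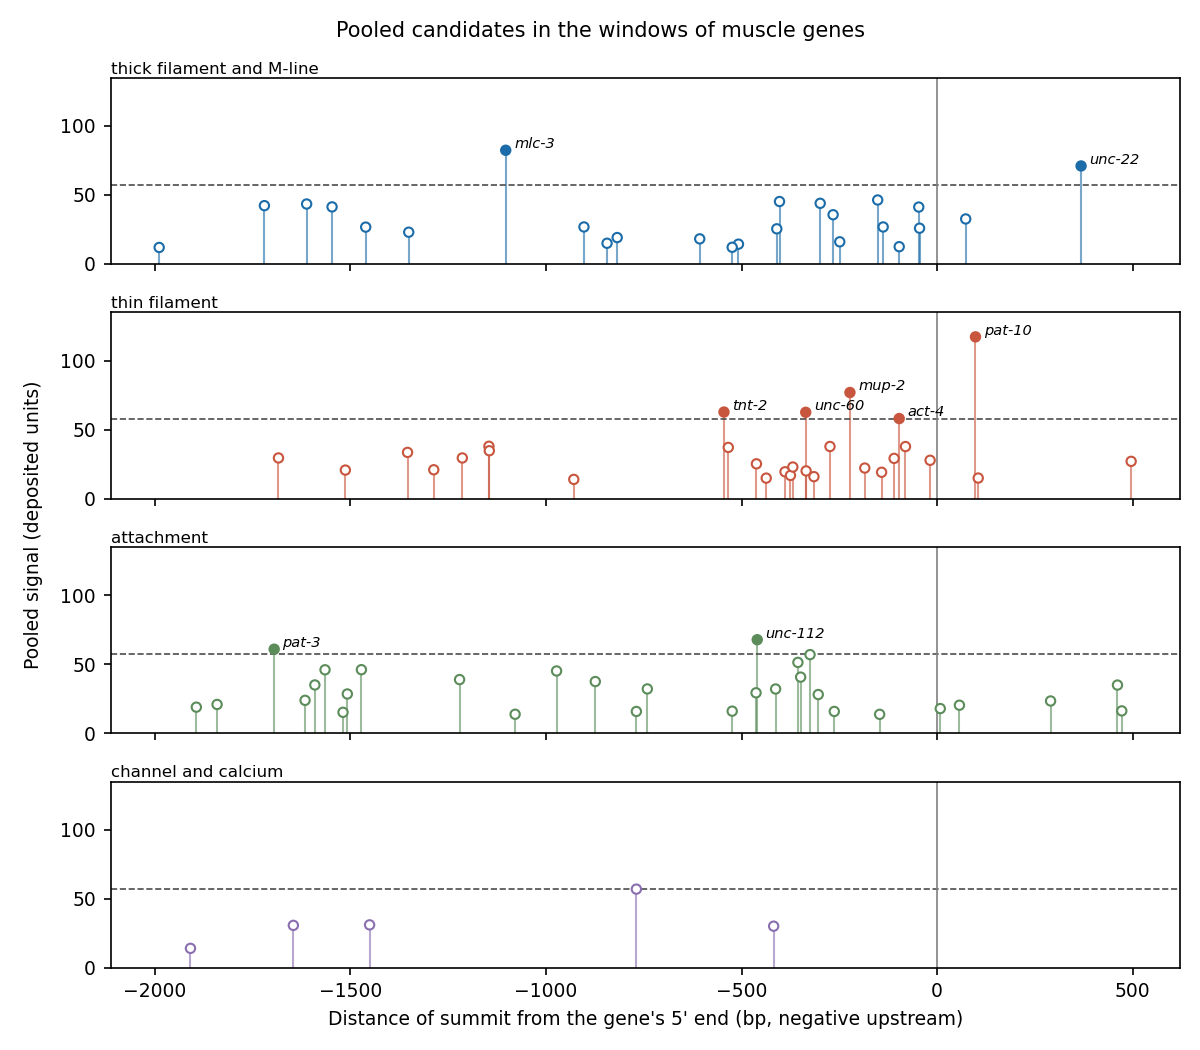
Every pooled candidate in the windows of the 53 genes, by distance of its summit from the gene's 5′ end in bp (x axis) and pooled signal (y axis), 1 panel per class. Filled points are optimal peaks and the dashed line is the weakest optimal signal. The optimal peaks of unc-112, tnt-2, unc-60, mup-2 and act-4 lie within 600 bp upstream, and those of pat-10 and unc-22 lie downstream of the 5′ end.

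Thick filament and M-line genes had optimal peaks in the window at 2 of 12, unc-22 and mlc-3 (16.7%, exact 95% interval 2.09 to 48.4, beside 5.42% of all genes). The myosin heavy chain genes had none. With replicate 1 alone the count was 4, with mlc-2 and unc-98 added. It remained 2, at the same genes, with replicate 2 alone.

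The highest signal of the class was at mlc-3 (WBGene00003371), which encodes the essential myosin light chain. Its pooled signal was 82.4, with 37.7 in replicate 1 and 25.9 in replicate 2 at the nearest summits (31.8 ± 8.31, SD, n = 2). Another replicate 2 summit within 200 bp had a signal of 44.4, so the lower value depends on taking the nearest. The peak at chrIII:5563700-5564143 lay 1103 bp upstream of mlc-3, in an intron of the neighbouring gene rpc-2, and in no other gene's window.

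The site of unc-22 (WBGene00006759), which encodes the giant kinase twitchin, lay in the first part of the gene at chrIV:12010417-12010860, in an intron 368 bp downstream of the 5′ end. Its replicates gave 33.6 and 38.9 (36.3 ± 3.76, SD, n = 2), and the pooled signal was 71.0. The 5′ end of ZK617.26, at 320 bp, was nearer to the summit than the outermost 5′ end of unc-22. The 5′ end of another annotated unc-22 transcript was nearer still, at 241 bp. The summit lay in the windows of both genes, so the window does not say which gene the site belongs to.

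The major structural genes of the filament had candidates below the optimal list. For unc-54, the main body wall myosin heavy chain, the strongest was 1547 bp upstream, with 25.5 in replicate 1, 14.1 in replicate 2 and 41.3 pooled. Another unc-54 candidate, 47 bp upstream, had nearly the same pooled signal of 41.2, with 18.4 in replicate 1 and 21.2 in replicate 2. The strongest at unc-15, which encodes paramyosin, was 152 bp upstream, with 24.2, 26.7 and 46.3. For mlc-2, a regulatory light chain gene, replicate 1 had 33.1 and replicate 2 12.1, with 45.2 pooled. Its paralogue mlc-1 had 26.8.

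For myo-3, the minor myosin heavy chain of body wall muscle, the window held a candidate of 26.7 while an intron 696 bp from the 5′ end held one of 40.8 (replicates 15.4 and 21.4). That intronic site was singled out after its values were seen. Its 101 bases at chrV:12233597-12233697 hold the class CAGATG and the hexamer GAGAGA.
myo-3: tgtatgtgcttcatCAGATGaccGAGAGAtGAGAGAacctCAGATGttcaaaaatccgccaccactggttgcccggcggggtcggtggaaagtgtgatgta
Of the rest, ttn-1, the titin-like giant, had 42.2 in the window (replicates 23.5 and 19.6) and 42.5 in an intron, the M-line gene unc-98 35.6 with no match in replicate 2, and the myosin chaperone gene unc-45 23.0. The lowest window signal of the class was 12.04, at the M-line gene unc-96, with no match in either replicate. An intron of unc-96 held a stronger candidate of 33.4, matched at 27.4 in replicate 2 alone.

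No attachment gene had an optimal site in an intron, beside 1.09% of all genes. In the window 2 of 18 had an optimal peak, pat-3 and unc-112 (11.1%, exact 95% interval 1.38 to 34.7, beside 5.42% of all genes). With replicate 1 alone the count was 4 (unc-97, unc-95, pat-3 and pat-6), and with replicate 2 alone it was 1 (unc-112). Both genes act in integrin adhesion, and the optimal peaks of the class were weaker than those of pat-10 and mlc-3.

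In the window of unc-112 (WBGene00006836), which encodes kindlin, an integrin activator, a peak at chrV:14696892-14697335 lay 460 bp upstream and also in the window of set-5. Its signal was 28.5 in replicate 1, 38.2 in replicate 2 (33.4 ± 6.81, SD, n = 2) and 67.8 pooled. The pat-3 gene (WBGene00003930) encodes the integrin beta subunit. Its peak at chrIII:3915622-3916065 was 1695 bp upstream, with 43.5 in replicate 1, 26.5 in replicate 2 (35.0 ± 11.97, SD, n = 2) and 60.9 pooled. The 5′ end of ccdc-47 was nearer, at 1123 bp. A stronger optimal peak, of signal 122.3, lay 2686 bp upstream of pat-3, outside the window and 132 bp from the 5′ end of ccdc-47.

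Several partners of integrin had candidates below the optimal list, of which unc-95 was the closest to it. For unc-95, a LIM domain protein of dense bodies and M-lines, a candidate 325 bp upstream had 34.2 in replicate 1, 22.5 in replicate 2 and 57.0 pooled, rank 1145, just outside the 1120. A CAGATG lay within 50 bp of its summit. For pat-6, which encodes parvin, the values were 30.04, 20.2 and 51.3, 356 bp upstream. For unc-97, the PINCH homologue, they were 32.1, 16.9 and 46.0, 1565 bp upstream, and in all 3 genes replicate 1 was the higher. The integrin alpha gene pat-2 went the other way, with 10.1 in replicate 1, 28.6 in replicate 2 and 45.1 pooled, at a summit with CATATG. E-boxes at candidates below the optimal list are named for some genes only, and their share was not counted. The strongest window candidates of tln-1 and act-2 also had a CATATG, while those of unc-15, mlc-2 and dyb-1 had no E-box.

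Genes of the dystrophin complex, which links the membrane to the filament lattice, had no optimal site. The dystrobrevin gene dyb-1 had 46.0 (replicates 19.3 and 28.4) and the syntrophin gene stn-1 had 40.6 (10.8 and 23.7). No candidate lay in the windows of dys-1, which encodes dystrophin, or dyc-1, its CAPON-like partner. Their strongest intronic candidates had 34.7 and 31.0. The α-actinin gene atn-1 likewise had none in the window and 20.2 in an intron.

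In the windows of the remaining attachment genes the strongest candidates ranged from 17.8 to 35.0. They were deb-1 (vinculin, 35.0), tln-1 (talin, 32.1), pat-4 (integrin-linked kinase, 32.0), alp-1 (an ALP-Enigma protein, 28.4), dim-1 (an immunoglobulin domain protein, 23.3), unc-52 (perlecan, 20.3) and zyx-1 (zyxin, 17.8). Introns held stronger candidates in dim-1 (43.1), zyx-1 (32.9) and unc-52 (27.9). Optimal peaks lay beyond the window at tln-1, 2363 bp upstream with 65.3, and at deb-1, 4484 bp upstream with 63.4. The latter lay in a coding exon of ZC477.4, 34 bp from the 5′ end of that gene.

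None of the 4 channel and calcium genes had an optimal peak in the window or an intron, beside 6.32% of all genes. With 4 genes the exact 95% upper limit is 60.2%, so their count cannot be told from that share. With replicate 2 alone unc-36 had a peak, and with replicate 1 alone none of the 4 did. For unc-36, the α2δ subunit of voltage-gated calcium channels, the candidate 769 bp upstream had 17.8 in replicate 1 and 37.98 in replicate 2. Its pooled signal of 57.1 ranked 1137, also just outside the 1120. For unc-68, the ryanodine receptor, the strongest candidate had 11.3, 19.4 and 31.2. For sca-1, the calcium pump of the sarcoplasmic reticulum, it had 20.5 in replicate 2 and 30.8 pooled, with no match in replicate 1. Another sca-1 candidate, 418 bp upstream with 30.2 pooled, was matched in both replicates, at 23.9 and 19.6. For egl-19, the pore subunit of the L-type channel, the window held a candidate of 14.1 with no match in either replicate, and the strongest in an intron had 17.2, matched at 12.2 in replicate 2 alone.

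Introns held optimal sites at 4 of 53 members (7.55%, exact 95% interval 2.09 to 18.2), against 1.09% of all genes. They were unc-22, unc-89, lev-11 and unc-94. Members were long, with a median of 5357 bp against 2027 bp over all genes, and longer genes hold more intronic sites. Among genes of at least 5357 bp, 4 of 27 members had one, against 4.94% of 2892 genes. Among those of at least 10000 bp the count was 3 of 13, against 8.62% of 998. Among genes with an intronic candidate the shares were 4 of 31 members and 4.88% of genes. With replicate 2 alone 3 members had an intronic site, without unc-94.

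At unc-89 (WBGene00006820), which encodes the obscurin homologue of the M-line, 2 optimal sites lay far inside the gene. The first, at chrI:4046607-4047050, was 11127 bp from the 5′ end with 44.9 in replicate 1, 32.1 in replicate 2 (38.5 ± 9.02, SD, n = 2) and 77.2 pooled. It lay 307 bp upstream of the 5′ end of a shorter annotated transcript of the gene. The second, at chrI:4080271-4080714, was 44791 bp from the 5′ end with 26.01 and 38.5 (32.3 ± 8.82, SD, n = 2) and 64.3 pooled, and it lay 46 bp upstream of another transcript's 5′ end. Both had a CAGATG within 50 bp of the summit, whereas the window of the gene held at most 43.9.

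At lev-11 (WBGene00002978), the tropomyosin gene, an optimal site at chrI:14627989-14628432 was 2883 bp from the 5′ end with 38.3 in replicate 1, 41.8 in replicate 2 (40.1 ± 2.47, SD, n = 2) and 82.9 pooled. The nearest 5′ end of a lev-11 transcript was 2748 bp away. At unc-94 (WBGene00006823), the tropomodulin gene, the site at chrI:6001028-6001471 lay 128 bp upstream of the 5′ end of an internal transcript. Its replicates differed most of the 13 sites, with 42.3 and 17.1 (29.7 ± 17.9, SD, n = 2), for a pooled signal of 60.6.

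Of the 5 intronic optimal sites, 3 were near a transcript 5′ end of the same gene (at most 500 bp before it or 200 bp after it). They were both sites of unc-89 and that of unc-94, genes with 5 and 3 annotated transcript 5′ ends. Genome-wide the share was 19.4% of 237 pairs of a gene and an intronic optimal site, not matched for the number of 5′ ends. Introns of members held 4.21 pooled candidates per 10 kb, against 2.47 over all genes, and in 10 of the 28 members with candidates in both places the strongest intronic one exceeded the strongest in the window. In dim-1 the intronic candidate had 43.1 (replicates 18.7 and 24.9) and lay 478 bp upstream of an internal transcript's 5′ end.

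**Figure D3:**
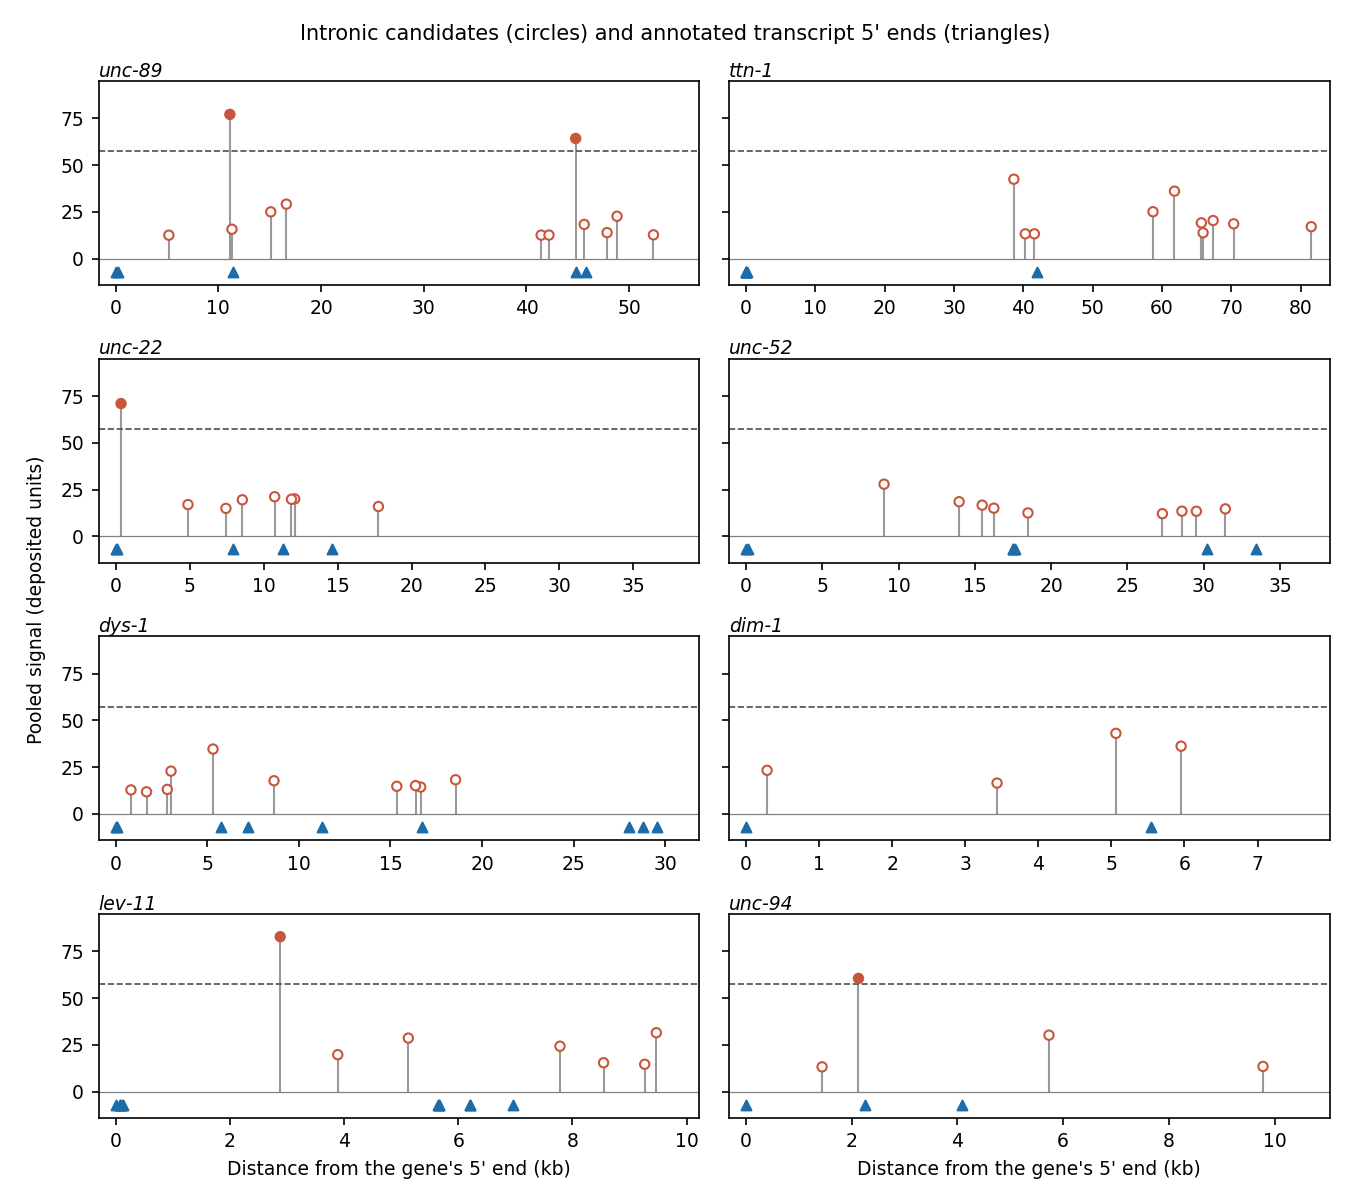
Intronic candidates (circles, filled where optimal) in 8 long or isoform-rich members, by distance from the gene's 5′ end in kb (x axis) and pooled signal (y axis), with annotated transcript 5′ ends as triangles and the weakest optimal signal as a dashed line. The optimal sites of unc-89 and unc-94 stand next to internal 5′ ends, and that of lev-11 stands between the starts.

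Replicates were compared at the 13 optimal sites. Each had a matched summit in both replicates. Replicate 2 was the higher at 5 of the 13, while it was the higher at 66.2% of all 1117 matched optimal peaks. Across the sites the median log2 ratio, replicate 2 over 1, was -0.12, ranging from -1.31 at unc-94 to 0.57 at the second unc-89 site, against a median of 0.19 and an SD of 0.55 over all matched optimal peaks. By the nearest summit, 11 of the 13 sites were among the strongest 1120 candidates of replicate 1 and 7 among those of replicate 2. Only 5 were in both on that basis, against 64.9% of all optimal peaks. The 13 sites were weaker than optimal peaks in general, with a median pooled signal of 67.8 against 79.6. Peaks of like signal were not compared, so the count does not say that muscle gene sites were less reproducible. The mlc-3 site was counted outside replicate 2, at 25.9. Its other replicate 2 summit within 200 bp, at 44.4, was among the strongest 1120 of that replicate. These counts therefore depend on the matching rule. Of the 40 members whose strongest window candidate was below the optimal list, 31 had it matched in both replicates, beside 39.0% of all such genes. Candidates of members had a higher median signal than those of all genes, and the part of signal in this count was not tested.

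**Figure D4:**
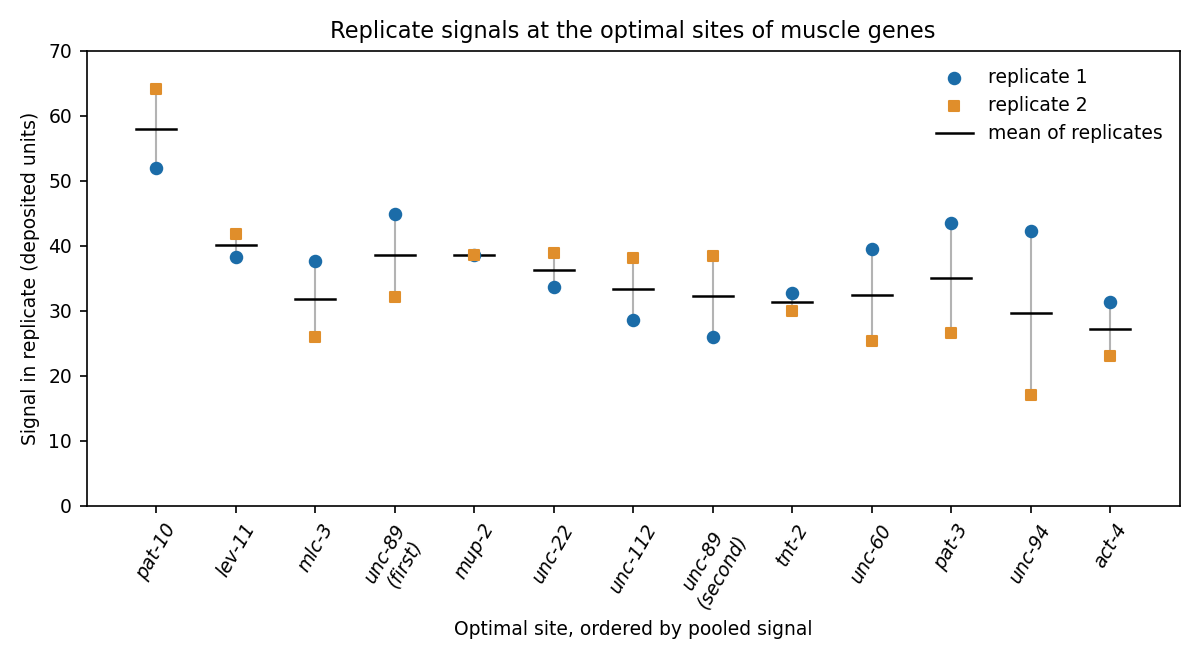
Signal of replicate 1 (circles) and replicate 2 (squares) at each of the 13 optimal sites, in deposited units, with the mean of both as a bar, ordered by pooled signal. Replicates lie closest at mup-2 and farthest apart at unc-94, and pat-10 is the only site above 50 in both.

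E-boxes lay at about as large a share of the muscle gene sites as of optimal peaks in general, and the differences were not tested. At least 1 of the 10 classes lay within 50 bp of 7 of the 13 summits (53.8%), beside 48.9% of the 1100 nuclear optimal summits and 32.2% of windows 500 bp to either side of those. CAGATG was at 4 of the 13, at pat-10, pat-3 and both sites of unc-89, against 14.4% of nuclear optimal summits and 3.50% of flanking windows. The unc-22 site held CAAATG and CACATG, 24 and 38 bp from the summit, the lev-11 site CAACTG, and the unc-94 site CACCTG and CACGTG, 3 and 2 bp from the summit. Over all nuclear optimal summits the shares were 7.09% for CAAATG, 11.5% for CACATG, 5.73% for CAACTG, 3.27% for CACCTG and 3.45% for CACGTG. At none of the 13 was there a CAAGTG (6.55% of nuclear optimal summits), a CAATTG (3.36%) or a CAGCTG (5.82%). CATATG, known from HLH-8 target promoters, was at none of the 13 and at 4.09% of nuclear optimal summits. The hexamer GAGAGA, on either strand, was at 5 of the 13, at pat-3, pat-10, lev-11, unc-94 and the first site of unc-89, against 26.1% of nuclear optimal summits and 5.77% of flanking windows. Each of those 5 also held an E-box, in the window of the same length. GC content at the 13 had a median of 49.5%, from 39.6% at tnt-2 to 64.4% at act-4, and the median of all nuclear optimal summits was also 49.5%.

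Attribution to a gene was often shared. Of the 9 window sites, 5 also lay in the window of another gene, and the member had the nearest 5′ end at 7. The exceptions, with each gene measured from its outermost 5′ end, were unc-22 and pat-3. None of the 13 sites lay within 500 bp of a tRNA, snoRNA or snRNA gene.

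Other muscle genes outside the 53 had a lower share with an optimal peak, a difference that was not tested. Of 52 genes of pharyngeal myosin, further sarcomere and attachment proteins, potassium and calcium channels and acetylcholine or GABA receptors, 4 had an optimal peak in the window (7.69%, beside 5.42% of all genes). They were cap-1 and cap-2, both subunits of the actin capping protein, with 72.8 and 63.2, pix-1, a guanine nucleotide exchange factor, with 105.5, and sup-9, a TASK-type potassium channel, with 81.0. Optimal sites lay in introns of lim-8 and of the spectraplakin gene vab-10, with 58.4 and 64.7, the former within 500 bp of a small RNA gene. None of 8 myogenic fate factors had an optimal peak in the window (beside 5.42% of all genes) or in an intron. Among them were hlh-1, the MyoD homologue, and unc-120. Only 3 of the 8 had a pooled candidate in the window, and 8 genes are too few to tell their count from that share.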

How the data were processed

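HLH-8 binding was measured by chromatin immunoprecipitation sequencing in 2 biological replicates of 1 group. Per the file inventories deposited by the authors, each replicate and the pooled alignments have a list of candidate peaks with background, made with a control as input for an irreproducible discovery rate step, whose result is the optimal list. Aligner, caller and depth scaling: not given in the sources used here. Peak signal (column 7) is used as the authors deposited it. Column 9, deposited by the authors as -log10 q, was not used for ranking. Read depth is unknown, so no counting interval is given for a signal.

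The 4 ce11 lists were used, with the Ensembl release 115 annotation and RefSeq sequence of the same assembly (WBcel235), which shares the chromosomes of ce11. Coordinates are 1-based. The lists of ce10 were not analysed here. Summits (column 10) were assigned to genes by the window, and to introns where they lay inside a gene and outside all its exons. The percentile of a member is among genes with a window candidate. Leaving out a replicate means taking the 1120 strongest candidates of the other. Window, intron, replicate and E-box matching were tested on simulated data.

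The members, classes and lists were chosen with earlier results of these data known. Full values are given for every member with an optimal site and for up to 3 others per class with the strongest candidates, and genes beyond that were chosen after their values were seen. The comparison of GAGAGA, of internal transcript 5′ ends and of long genes was added after the plan. Calculations used Python 3.11.15, numpy 2.4.6, scipy 1.17.1 and matplotlib 3.10.9.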

Additional observations from a re-analysis of the deposited data

How the results depend on the processing

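No paired analysis was possible because the design has 1 group. Counts rest on few genes, depth is unknown, and signals near 57.4 decide the calls. Of 53 members, those with an optimal peak in the window numbered 7 with 1000 bp upstream, 12 with 5000 bp, 12 with nearest 5′ ends, 11 with any transcript's 5′ end, and 6 to 14 with a replicate left out. In the stronger 560 peaks the number was 2. The share of members over that of all genes, 3.13 here, was 1.30 in the stronger 560 peaks, 1.72 among genes with a candidate, and 2.15 to 5.00 with a replicate left out. Among genes at least as long as the median member, 1 of 27 members had an optimal peak in the window, against 8.09% of genes. A count of 1 is too small to show that the order was reversed. The cause of these differences was not tested.

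By class, the counts of thick filament, thin filament and attachment genes were 1, 1 and 0 in the stronger 560 peaks, where fewer peaks enter. With 1000 bp upstream thick filament and attachment genes had 1 each, with 5000 bp attachment genes had 4, and with nearest 5′ ends thin filament genes had 8. Leaving out a replicate gave 2 to 4 thick filament, 2 to 6 thin filament, 1 to 4 attachment and 0 to 1 channel genes. Intronic sites were at 1 member (lev-11) in the stronger 560 peaks, and E-boxes at 2 of the 3 sites there. Moving unc-96 and unc-98 to attachment and setting the dystrophin complex apart changed no class count. Alternatives that left out a replicate for candidates, E-boxes and the other lists, and the match to the strongest replicate summit, were chosen after seeing the data. With that match the median log2 ratio at the 13 sites was -0.0021.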

Other observations

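The laminin and basement membrane genes, which lie outside the muscle cell but face its attachments, held optimal sites, some with a higher signal than any of the 13 muscle gene sites. Of 15 such genes, 4 had an optimal peak in the window (26.7%, beside 5.42% of all genes). Their signals were 190.0 at lam-1 (laminin beta), 120.7 and 81.8 at lam-2 (laminin gamma), 101.1 at agr-1 (agrin) and 57.8 at epi-1 (laminin alpha). The agr-1 peak lay 1672 bp upstream, in an intron of ssup-72, whose 5′ end was nearer, at 250 bp. Introns of him-4 (hemicentin) and ost-1 (SPARC) held optimal sites of 142.5 and 93.8, the former within 500 bp of a small RNA gene. The count was 4 with either replicate left out. At lam-1 the replicates gave 97.9 and 89.3, and at him-4 55.2 and 82.8. No test of the difference from the muscle genes was made.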
